A study of Mus musculus with 10 samples.

Results

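The MYC and MAX network is a family of transcription factors that share MAX or the related MLX as a DNA-binding partner. The 10 genes followed here are Myc, Mycn, Max, Mxd1, Mxd3, Mxd4, Mxi1, Mnt, Mga and Mlx, chosen by symbol from the 24015 genes of the deposited count table, and all 10 were found in it. Of these, 9 passed the filter on low counts and were tested. The other, Mycn, had no read in any of the 10 libraries, which allows up to 3 reads in a library, or between 0.102 and 0.147 CPM (reads counted for a gene, scaled to a common library total) depending on its depth. Such floors cover counting error only.

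MYC and MYCN bind the E-box as dimers with MAX and raise the transcription of genes for ribosome assembly, nucleotide synthesis and growth. MXD1, MXD3, MXD4, MXI1 and MNT compete for MAX, bind the same sites and recruit SIN3 and histone deacetylases, so that they act as antagonists of MYC, while MGA joins MAX to a Polycomb complex and MLX pairs with some of the antagonists and with the glucose-responsive MondoA. In blood cells MYC is known for its high level in proliferating progenitors and leukemias, and MXD1 for its rise as myeloid cells leave the cycle and mature.

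RNA was sequenced from MAF9 cells, bone marrow cells of C57BL/6 mice transduced with the leukemia fusion gene MLL-AF9 and grown with interleukin-3, after 4 days with an inhibitor or with DMSO alone. MM-401 blocks the contact of MLL1 with WDR5, EPZ5676 inhibits the histone methyltransferase DOT1L, MI-2-2 blocks MENIN and iBET inhibits the BET bromodomain proteins. Each inhibitor was used at its IC50, whose value was not given, and doses were thus matched by effect on growth. Each of the 5 conditions had 2 libraries, described as biological duplicates. Counted reads came to 23717378 and 20394762 in the DMSO libraries, 22656926 and 23187667 with MM-401, 21249483 and 23505117 with EPZ5676, 23793470 and 29473127 with MI-2-2, and 21875517 and 25401181 with iBET. Levels below are CPM after TMM scaling, which adjusts library totals for differences in RNA composition, and paired values are replicates 1 and 2 in that order. A gene is said to have risen or fallen where edgeR's adjusted p was under the false discovery rate of 0.05.

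DMSO replicate 2 stood apart from the rest. It held 3630 reads on Uty, Kdm5d, Ddx3y and Eif2s3y, which lie on the Y chromosome, against 0 to 2 in each of the other libraries, and its Xist level was 4.76 CPM where the others had 928 to 3051. Across 12971 tested genes the correlation of log2 levels between the DMSO replicates was 0.942, below the 0.983 to 0.992 found within each inhibitor. Among the members, Mxd1 was the only one more than 2-fold apart between the DMSO libraries. Results against DMSO are therefore given with and without this library where it moves them, and contrasts among inhibitors, which hold no DMSO library, are set beside them. The spread used in those contrasts was still estimated from all libraries, DMSO included, so their p are not free of DMSO.

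The promoters of Mxd1 and Mxd3, which rose most among the antagonists, and of the dimer partners Max and Mlx are shown first. RefSeq windows on GRCm38.p6, from 250 bases before to 50 bases after the annotated start, matched all members but Myc, with 11 windows for 9 genes (3 for Mxi1). The windows lie at chr6:86669110-86669409, minus strand for Mxd1, chr13:55329682-55329981, minus strand for Mxd3, chr12:76962199-76962498, minus strand for Max and chr11:101087040-101087339, plus strand for Mlx. Capitals mark CACGTG, the E-box, or GGCGGGAA, a site form of the E2F factors, each searched on both strands, and neither motif contains the other.
Mxd1: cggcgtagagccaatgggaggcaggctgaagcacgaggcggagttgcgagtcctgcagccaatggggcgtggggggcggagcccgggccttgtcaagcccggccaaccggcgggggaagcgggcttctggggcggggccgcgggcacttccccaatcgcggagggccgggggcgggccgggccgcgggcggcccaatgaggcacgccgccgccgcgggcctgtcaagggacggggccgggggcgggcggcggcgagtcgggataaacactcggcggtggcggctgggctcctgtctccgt
Mxd3: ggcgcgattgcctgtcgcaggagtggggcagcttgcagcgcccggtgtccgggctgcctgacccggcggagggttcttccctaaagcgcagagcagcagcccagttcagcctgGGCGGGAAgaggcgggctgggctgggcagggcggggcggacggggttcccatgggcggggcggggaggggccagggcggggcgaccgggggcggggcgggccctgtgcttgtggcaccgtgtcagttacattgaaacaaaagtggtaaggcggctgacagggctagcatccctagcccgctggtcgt
Max: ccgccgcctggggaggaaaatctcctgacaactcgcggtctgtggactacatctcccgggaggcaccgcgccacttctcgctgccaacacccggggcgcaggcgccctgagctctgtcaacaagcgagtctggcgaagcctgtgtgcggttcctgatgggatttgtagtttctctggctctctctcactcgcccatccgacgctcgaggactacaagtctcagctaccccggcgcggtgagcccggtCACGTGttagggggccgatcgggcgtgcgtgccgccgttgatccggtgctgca
Mlx: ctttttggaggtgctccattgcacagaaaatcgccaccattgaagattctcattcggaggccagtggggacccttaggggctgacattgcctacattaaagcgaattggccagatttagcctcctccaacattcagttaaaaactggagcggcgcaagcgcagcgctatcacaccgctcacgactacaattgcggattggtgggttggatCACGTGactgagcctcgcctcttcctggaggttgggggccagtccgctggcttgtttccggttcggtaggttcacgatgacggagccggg
The E-box was in 4 of the 11 windows, or 36.4%, against 7.15% of all 32851 promoter windows. These were the windows of Max, Mlx, Mnt and Mxd4, with the motif at -3, -40, -123 and -219 relative to the start. The E2F form was in the Mxd3 window alone among the members, where 2.19% of all windows hold it. Neither run of letters was in the windows of Mxd1, Mxi1, Mga or Mycn. These matches are a description of the windows and not of binding.

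Myc was the most abundant member per length in DMSO and was lower with EPZ5676 and MI-2-2. Its level was 456 and 403 CPM in DMSO, 361 and 295 with MM-401, 254 and 145 with EPZ5676, 182 and 135 with MI-2-2, and 314 and 257 with iBET. The EPZ5676 and MI-2-2 libraries were the 4 lowest of the 10, and the MM-401 and iBET libraries overlapped each other and lay below both DMSO libraries. In this bulk RNA, fewer cells of a type and less RNA per cell cannot be told apart. Against DMSO, Myc fell 2.15-fold with EPZ5676 (log2 fold change -1.10, SE 0.28, adjusted p = 0.0164) and 2.71-fold with MI-2-2 (-1.44, SE 0.28, adjusted p = 0.00558). With iBET and with MM-401 it did not pass the threshold, at log2 fold change -0.59, SE 0.27, adjusted p = 0.179 and -0.39, SE 0.27, adjusted p = 0.648. A block on replicate number called Myc lower with iBET, though the labels do not say what a number shares. Over 17 other settings Myc was called lower with iBET in 1 (adjusted p from 0.0327 to 0.506) and with MM-401 in 0. The call with EPZ5676 was lost without EPZ5676 replicate 2 (adjusted p = 0.0752), with a log2 fold change of -0.75, and over 17 other settings its adjusted p ran from 0.00116 to 0.0859. Without DMSO replicate 2 the log2 fold changes were -1.16 (adjusted p = 0.0301) with EPZ5676 and -1.49 (adjusted p = 0.0115) with MI-2-2.

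Set against the other inhibitors, with no DMSO library in the contrast, Myc was also lower with EPZ5676 and MI-2-2 averaged. It was 1.84-fold lower than with MM-401 (log2 fold change -0.88, SE 0.23, adjusted p = 0.0176) and lower than with iBET (-0.68, SE 0.23, adjusted p = 0.0430). Both calls were lost in some fits that left out a library, and such fits also change the spread shared by all groups. That against MM-401 was lost without either MM-401 library or MI-2-2 replicate 2 (adjusted p between 0.0541 and 0.137). That against iBET was lost without either MM-401 library, EPZ5676 replicate 2, MI-2-2 replicate 2 or either iBET library (adjusted p between 0.0624 and 0.236) and with DESeq2's size factors in edgeR (adjusted p = 0.0629), and was kept in 9 of 17 settings. EPZ5676 and MI-2-2 did not differ in Myc past the threshold (0.33, SE 0.27, adjusted p = 0.929), a difference that was -0.13 without EPZ5676 replicate 1, nor did MM-401 and iBET (0.20, SE 0.27, adjusted p = 0.677).

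Max, the shared dimer partner, passed the threshold in none of the 8 comparisons. It was at 69.3 and 106 CPM in DMSO, 93.3 and 88.1 with MM-401, 93.0 and 118 with EPZ5676, 101 and 114 with MI-2-2, and 82.0 and 92.6 with iBET. DMSO replicate 1 was the lowest of the 10 libraries, and DMSO replicate 2 lay among the inhibitor values. Without DMSO replicate 2, edgeR called Max higher with EPZ5676 (adjusted p = 0.0214) and MI-2-2 (adjusted p = 0.0162), the only 1 of 17 other settings in which either was called. The adjusted p of the rest ran up to 0.961 and 0.932.

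**Figure D1:**
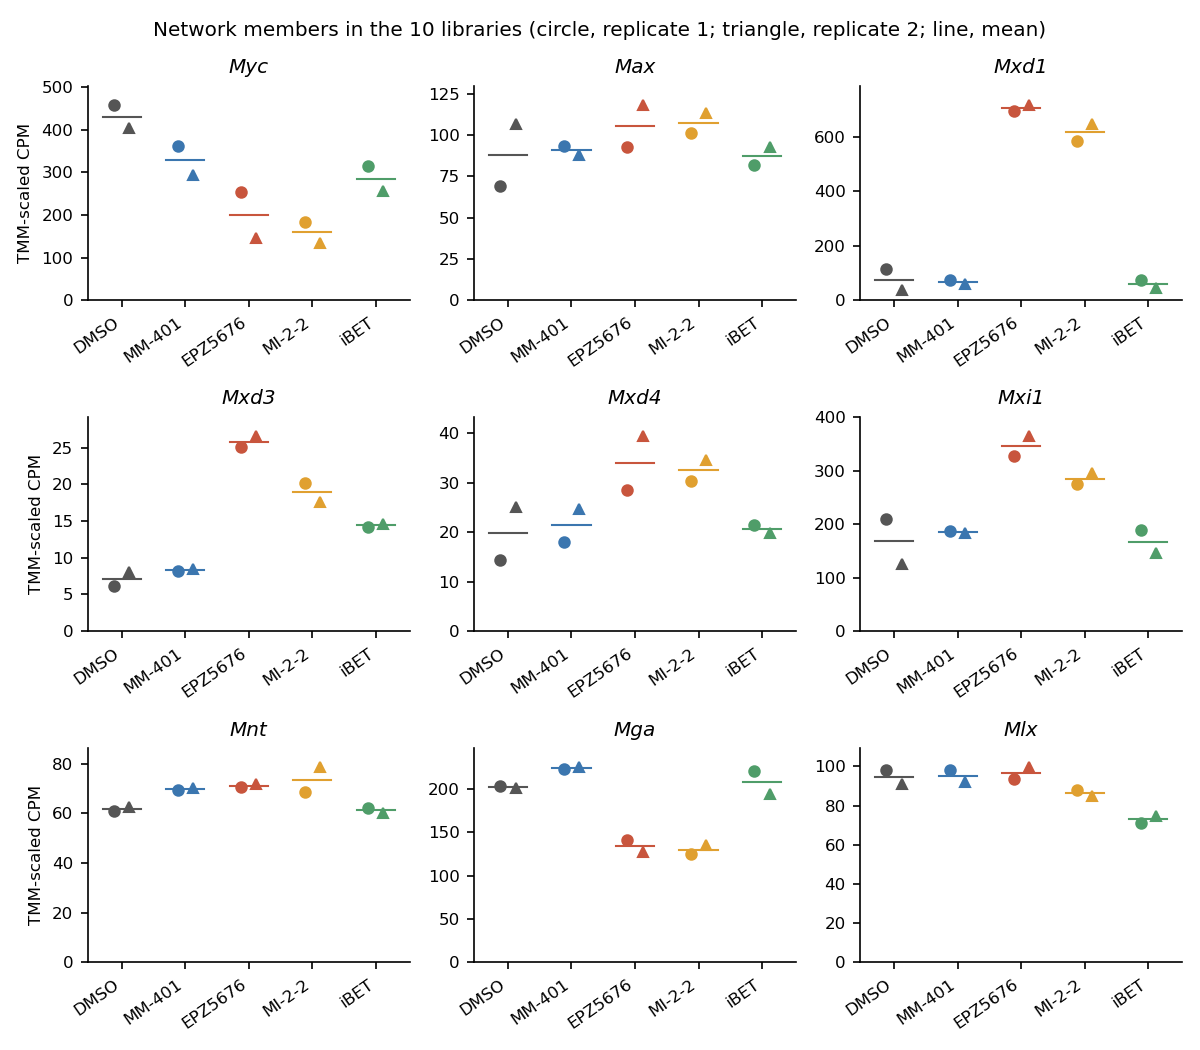
Level of each detected member in the 10 libraries, in TMM-scaled CPM on linear axes from 0, by condition; circles are replicate 1, triangles replicate 2 and lines the mean of both. Mxd1 was between 587 and 715 CPM in the EPZ5676 and MI-2-2 libraries and between 36.3 and 113 in the other 6.

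Mxd1, the MYC antagonist induced when myeloid cells mature, had the widest range of condition means among the members (3.58 on the log2 scale, against 1.45 for Myc). It was at 113 and 36.3 CPM in DMSO, 75.8 and 59.2 with MM-401, 695 and 715 with EPZ5676, 587 and 647 with MI-2-2, and 74.6 and 46.2 with iBET. The EPZ5676 and MI-2-2 libraries formed a high group far from the other 6, which overlapped among themselves. Mxd1 rose 9.40-fold with EPZ5676 (log2 fold change 3.23, SE 0.49, adjusted p = 0.00243) and 8.23-fold with MI-2-2 (3.04, SE 0.49, adjusted p = 0.00273). The size depended on the control library, being 2.66 and 2.48 without DMSO replicate 2 and 4.28 and 4.09 without DMSO replicate 1. EPZ5676 and MI-2-2 averaged were 9.77-fold above MM-401 (3.29, SE 0.47, adjusted p = 0.00158) and 10.9-fold above iBET (3.45, SE 0.47, adjusted p = 0.00108). All 4 calls were kept in each fit that left out a library. With iBET Mxd1 was not called (-0.31, SE 0.46, adjusted p = 0.679), but edgeR called it lower without DMSO replicate 2 (adjusted p = 0.0476), and over 17 other settings the log2 fold change ran from -0.91 to 0.74 (adjusted p up to 1.00). With MM-401, also not called (-0.15, SE 0.46, adjusted p = 0.933), it ran from -0.77 to 0.90.

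Mxd3, a member of the MXD group known from proliferating cells, was at low level and rose with EPZ5676, MI-2-2 and iBET. It was at 6.11 and 8.10 CPM in DMSO, 8.20 and 8.53 with MM-401, 25.1 and 26.5 with EPZ5676, 20.2 and 17.6 with MI-2-2, and 14.2 and 14.6 with iBET. The libraries of these 3 inhibitors lay above those of DMSO and MM-401 and did not overlap one another, EPZ5676 being the highest. The rise was 3.63-fold with EPZ5676 (log2 fold change 1.86, SE 0.19, adjusted p = 0.000681), 2.66-fold with MI-2-2 (1.41, SE 0.19, adjusted p = 0.00136) and 2.03-fold with iBET (1.02, SE 0.19, adjusted p = 0.0136). The iBET call was lost without either iBET library (adjusted p between 0.0789 and 0.0903), and without DMSO replicate 2 the iBET rise was 1.23 (adjusted p = 0.00548). Mxd3 was lower with MM-401 than with iBET (-0.78, SE 0.18, adjusted p = 0.0344). This call was lost in 8 of the 10 fits that left out a library, while the log2 fold change stayed between -0.81 and -0.76. EPZ5676 and MI-2-2 averaged were above MM-401 (1.40, SE 0.17, adjusted p = 0.000925) and above iBET (0.62, SE 0.16, adjusted p = 0.0161), the latter lost without either iBET library (adjusted p between 0.0971 and 0.101).

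Mxi1, which encodes a further MXD antagonist, was the most abundant of the antagonists per length in DMSO. It was at 211 and 126 CPM in DMSO, 188 and 184 with MM-401, 327 and 364 with EPZ5676, 275 and 296 with MI-2-2, and 188 and 146 with iBET. The 4 EPZ5676 and MI-2-2 libraries were above all others, and the DMSO libraries spanned the MM-401 and iBET values. Mxi1 rose 2.05-fold with EPZ5676 (log2 fold change 1.04, SE 0.23, adjusted p = 0.0109) and 1.69-fold with MI-2-2 (0.76, SE 0.23, adjusted p = 0.0319). The call with EPZ5676 was lost without EPZ5676 replicate 2 (adjusted p = 0.0611), and the log2 fold change was 0.74 without DMSO replicate 2 (adjusted p = 0.0146). That with MI-2-2 was lost without DMSO replicate 2, either MM-401 library or either MI-2-2 library (adjusted p between 0.0570 and 0.128) and with total-count scaling (0.60, adjusted p = 0.0783), and its log2 fold change was 0.47 without DMSO replicate 2. EPZ5676 and MI-2-2 averaged were above iBET (0.91, SE 0.21, adjusted p = 0.00943), a call lost without iBET replicate 2 (adjusted p = 0.101), and above MM-401 (0.75, SE 0.21, adjusted p = 0.0212), a call lost without either MM-401 library, EPZ5676 replicate 2 or MI-2-2 replicate 2 (adjusted p between 0.0536 and 0.129).

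Mxd4 and Mnt, the remaining antagonists, passed the threshold in none of the 8 comparisons in the fit that gave the calls above. Mxd4 was at 14.3 and 25.1 CPM in DMSO and between 28.6 and 39.3 in the EPZ5676 and MI-2-2 libraries, all 4 above both DMSO values (adjusted p = 0.0653 and 0.0798 against DMSO). Mnt lay between 60.2 and 78.5 CPM in all 10 libraries. Without DMSO replicate 2, edgeR called Mxd4 higher with both inhibitors, as DESeq2 did with all libraries. DESeq2 also called Mnt higher with MI-2-2. For EPZ5676 and MI-2-2 averaged against iBET, Mnt (adjusted p = 0.0605) was called in 7 of 17 other settings (from 0.0125 to 0.310) and Mxd4 in 6 (from 0.00861 to 0.254). Against MM-401 Mxd4 was called in 5 (from 0.0137 to 0.387). Against DMSO Mxd4 was called in 3 with EPZ5676 (adjusted p from 0.00902 to 0.296) and in 3 with MI-2-2 (from 0.00999 to 0.253).

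**Figure D2:**
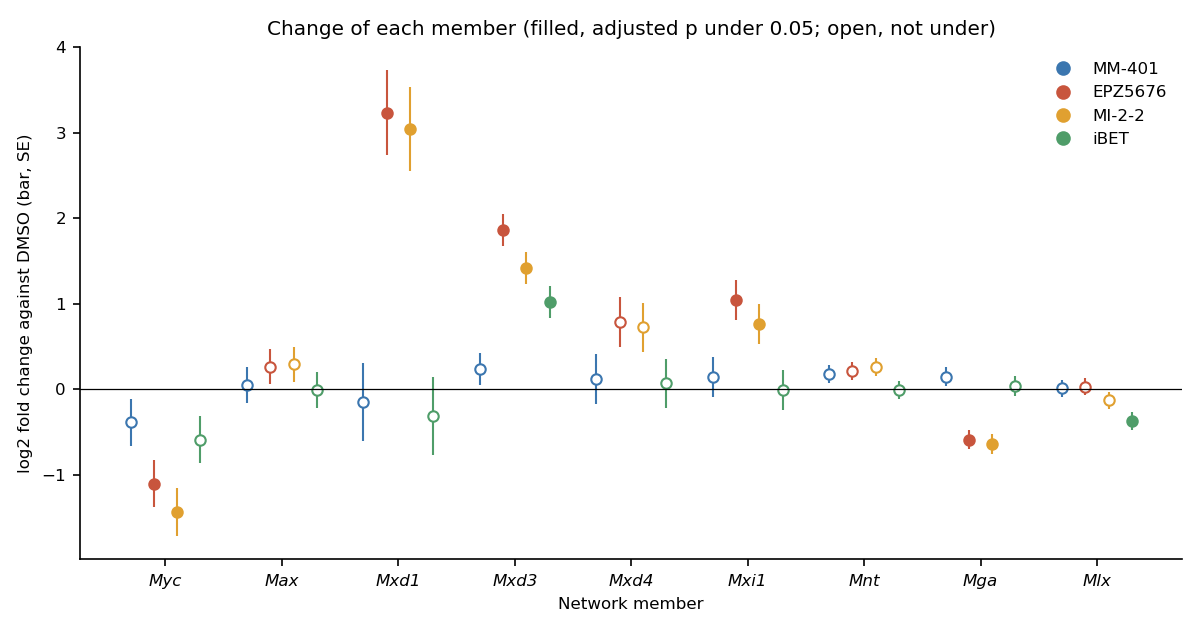
Log2 fold change against DMSO of the 9 tested members for each inhibitor, with bars of 1 SE; filled points passed the adjusted threshold of 0.05 in edgeR's test. Mxd1, Mxd3 and Mxi1 rose and Myc and Mga fell with EPZ5676 and MI-2-2, though with total-count scaling the rise of Mxi1 with MI-2-2 did not pass.

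Mga, a MAX partner that scaffolds a Polycomb complex, fell with EPZ5676 and MI-2-2. It was at 204 and 201 CPM in DMSO, 223 and 225 with MM-401, 141 and 128 with EPZ5676, 125 and 135 with MI-2-2, and 221 and 195 with iBET. No EPZ5676 or MI-2-2 library reached the lowest of the other 6. The fall was 1.51-fold with EPZ5676 (log2 fold change -0.59, SE 0.11, adjusted p = 0.00562) and 1.56-fold with MI-2-2 (-0.64, SE 0.11, adjusted p = 0.00381). Both inhibitors averaged were below iBET (-0.65, SE 0.09, adjusted p = 0.00135) and below MM-401 (-0.76, SE 0.09, adjusted p = 0.00101), and these 4 calls held in every fit that left out a library.

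Mlx, the partner of MondoA, was lowest with iBET. It was at 98.1 and 90.9 CPM in DMSO, 98.2 and 91.8 with MM-401, 93.4 and 99.5 with EPZ5676, 88.0 and 84.7 with MI-2-2, and 71.1 and 74.9 with iBET. Both iBET libraries were below all others. The fall of 1.29-fold against DMSO (log2 fold change -0.37, SE 0.10, adjusted p = 0.0477) was close to the threshold and was lost in 9 of the 10 fits that left out a library (adjusted p between 0.0666 and 0.245). Mlx was higher with EPZ5676 and MI-2-2 averaged than with iBET (0.32, SE 0.09, adjusted p = 0.0200), a call lost without MI-2-2 replicate 1 or either iBET library (adjusted p between 0.0573 and 0.144) and with total-count scaling (adjusted p = 0.126). Exons of Mlx overlap those of Psmc3ip on the opposite strand over 19.3% of their bases, and smaller overlaps of 4.43%, 6.06% and 2.84% touch Mxd3, Mxd4 and Mxi1. The strand setting of the counting was not given, so reads of such partners cannot be told apart there.

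Counted over the 9 tested members, 3 rose (Mxd1, Mxd3, Mxi1) and 2 fell (Myc, Mga) with EPZ5676 against DMSO, where 18.7% of all tested genes were called higher and 19.4% lower. The counts with MI-2-2 were 3 and 2, of the same members, beside 20.2% higher and 21.2% lower. With iBET 1 rose and 1 fell, beside 6.38% and 7.54%. The counts of falling members are close to these shares, those of rising members were not tested against them, and nothing is read from either. With MM-401 edgeR called 0 members and 0% of all genes, while 0 members and 1450 genes had an unadjusted p under 0.05, DESeq2 called 0 members and 286 genes, and without DMSO replicate 1 edgeR called 1368 genes. For EPZ5676 the number of members called was 3 without EPZ5676 replicate 2. For iBET it was 0 without either iBET library and 1 without DMSO replicate 1, either MM-401 library, either EPZ5676 library or either MI-2-2 library. Comparisons against DMSO share its 2 libraries. The split of calls depended on scaling. With total-count scaling 34.7% of the calls with EPZ5676 were higher against 49.2% with TMM, and 37.1% against 48.9% with MI-2-2. For both averaged the shares were 37.3% against 47.9% in the contrast with iBET, and 36.1% against 48.7% in that with MM-401.

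In the contrasts among inhibitors, EPZ5676 against MI-2-2 gave 0 members called by edgeR, beside 0.0154% of all genes (2 genes), with 1 member and 937 genes at an unadjusted p under 0.05, and DESeq2 called 0 members and 156 genes. Of the members 1 was lower with MM-401 than with iBET, where 5.96% of genes were higher and 5.48% lower. EPZ5676 and MI-2-2 averaged gave 4 higher and 2 lower members against iBET (background 21.9% and 23.8%) and 3 higher and 2 lower against MM-401 (20.5% and 21.6%). In fits of only the groups compared with DMSO, 2 members were called with EPZ5676 (Mxd1, Mxd3), 1 with MI-2-2 (Myc) and 0 with iBET. With single libraries left out, the number of members called between MM-401 and iBET was 0 without either MM-401 library, either EPZ5676 library, either MI-2-2 library or either iBET library and 2 without either DMSO library (Mxd3 and Mlx). For both averaged against iBET it was lowest without either iBET library and highest without DMSO replicate 2. Against MM-401 it was lowest without either MM-401 library or MI-2-2 replicate 2. These numbers were not set against the share of all genes called in the same fits.

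Levels of different members can be set side by side once divided by exon length. In mean TMM-scaled CPM per kb of the union of a gene's exons, the order of levels in DMSO was Myc (158), Mlx (47.3), Mxi1 (24.7), Max (24.4), Mnt (13.3), Mga (13.2), Mxd1 (10.6), Mxd3 (2.58 and 3.42 in its libraries), Mxd4 (2.33). Myc and Mlx stood clear of their neighbours in both DMSO libraries, whereas Mxi1 and Max overlapped, as did Mnt, Mga and Mxd1, and Mxd3 and Mxd4. With the longest transcript as length, Myc (195 and 172 CPM per kb) still stood clear in DMSO, but Max (35.7 and 54.8) overlapped Mlx (49.9 and 46.3) as well as Mxi1 (41.8 and 25.0). With EPZ5676 the level of Mxd1 by exon union (99.7 CPM per kb) came first, ahead of Myc (73.5), Mxi1 (50.7) and Mlx (48.2), the last pair overlapping. With MI-2-2 it was also Mxd1 (87.2 CPM per kb) ahead of Myc (58.4), and by longest transcript Mxd1 was again first with both inhibitors. Among 12376 tested genes with a matched exon length, Myc lay at percentile 98.7 of CPM per kb in DMSO, 95.2 with EPZ5676 and 93.3 with MI-2-2, and Mxd1 at 60.5, 96.8 and 96.1.

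The level of Myc went from above to below the summed level of its antagonists under these inhibitors. In CPM per kb, Myc divided by the sum of Mxd1, Mxd3, Mxd4, Mxi1 and Mnt gave a ratio of 2.61 and 3.41 in DMSO, 2.26 and 1.90 with MM-401, 0.534 and 0.287 with EPZ5676, 0.447 and 0.304 with MI-2-2, and 1.92 and 1.91 with iBET. Myc exceeded the antagonists in each DMSO, MM-401 and iBET library and was below them in each EPZ5676 and MI-2-2 library. Mxd1 made up between 54.4% and 56.0% of the antagonist sum in the latter and between 11.8% and 24.9% elsewhere. The sum itself, in CPM per kb, was 64.3 and 43.5 in DMSO, 175 and 186 with EPZ5676, and 150.2 and 163 with MI-2-2. These are mRNA levels, and the ratio was not tested.

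**Figure D3:**
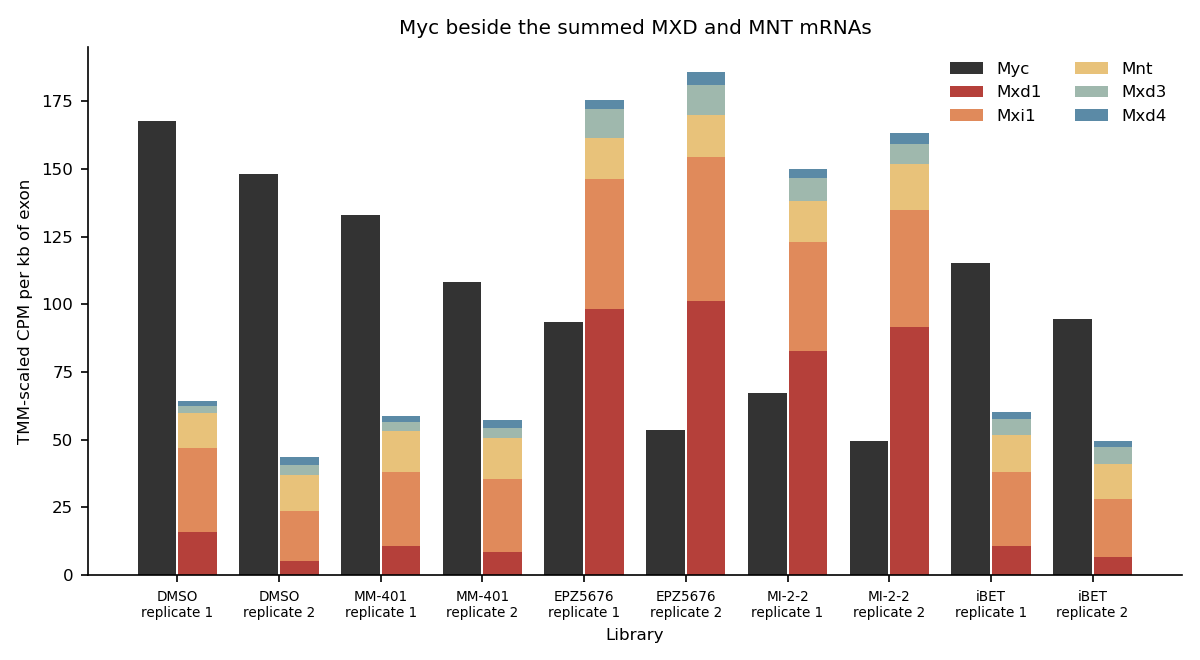
Level per exon length of Myc (dark bars) and of the 5 antagonist genes stacked (coloured bars) in each library, in TMM-scaled CPM per kb. The stack is the taller bar in the EPZ5676 and MI-2-2 libraries, where Myc lies between 49.7 and 93.7 CPM per kb, and the shorter bar in the other 6.

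Among the 9939 tested genes that averaged 5 CPM or more, those whose log2 level followed Myc most closely over the 10 libraries were Blm (Pearson's r 0.988), 9430015G10Rik (0.986), Mars (0.984), Dyrk2 (0.982) and Aldh18a1 (0.978). Blm encodes a DNA helicase, Mars the methionyl-tRNA synthetase and Aldh18a1 an enzyme of proline synthesis. Those closest to Mxd1 were Sema7a (0.997), Tmem154 (0.996) and Rab37 (0.996). Aldh18a1 was at 239 and 202 CPM in DMSO and 114 and 69.2 with MI-2-2, and Rab37 at 7.90 and 2.21 CPM in DMSO and 48.8 and 51.6 with MI-2-2. Sema7a was at most at 0.662 CPM in the DMSO, MM-401 and iBET libraries and between 16.8 and 21.3 in the other 4. Rab37 was between 2.21 and 7.90 CPM in the former, with a mean just under 5 CPM, and between 48.8 and 67.2 in the latter. Both genes thus passed the limit on the mean only through these 4 libraries, and that limit favours genes of such a pattern. The points share conditions and sequencing, and for Mxd1 they fall into 2 clusters, so these r are a measure of likeness with no p.

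Genes that work with the members were followed as lists. The other genes of the extended network, Mycl, Mlxip (MondoA) and Mlxipl (ChREBP), gave 2 tested genes, none called against DMSO by edgeR (0, 0, 0 and 0 at an unadjusted p under 0.05 with EPZ5676, MI-2-2, iBET and MM-401), Mlxip being the most abundant at 120.2 to 201 CPM. Txnip and Arrdc4, which MondoA and MLX activate, were not called against DMSO by edgeR either (0, 0, 0 and 0). Txnip, the more abundant, was at 455 and 219.7 CPM in DMSO, 219 and 119.9 with MM-401, 641 and 276 with EPZ5676, 518 and 238 with MI-2-2, and 558 and 309.7 with iBET. Replicates 1 were above replicates 2 throughout, and each MM-401 library had the lowest value of its number. For EPZ5676 and MI-2-2 averaged against MM-401 edgeR again called 0 of the 2 genes, with 2 at an unadjusted p under 0.05 and a median log2 fold change of 1.40.

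Among corepressor genes that MXD proteins and MNT recruit, Hdac2 fell with EPZ5676 and MI-2-2 and Sin3b rose with iBET. Hdac2, a histone deacetylase, was at 148 and 146 CPM in DMSO, 89.8 and 96.1 with EPZ5676, and 87.8 and 90.7 with MI-2-2. It was below both DMSO values in all 4 inhibitor libraries and fell with each, log2 fold change -0.66, SE 0.11, adjusted p = 0.00335 and -0.72, SE 0.11, adjusted p = 0.00228. Sin3b, a scaffold of the SIN3 complex, was at 104 and 94.6 CPM in DMSO and 139 and 153 with iBET. Both iBET libraries were above both DMSO libraries, and the rise (0.55, SE 0.12, adjusted p = 0.0263) was lost without either MM-401 library or either iBET library, at most at an adjusted p of 0.163. Ncor1, the most abundant of the list, was at 419.9 to 572 CPM and was not called.

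Of 11 genes of the Polycomb complex that MGA scaffolds, 6 fell and 1 rose with EPZ5676 (of all tested genes 19.4% and 18.7%), 6 fell and 1 rose with MI-2-2 (21.2% and 20.2%), and 1 rose with iBET (6.38%). The median log2 fold change was -0.40, -0.61 and -0.11, against -0.06, -0.05 and -0.04 over all tested genes. Pcgf6, the subunit that defines this complex, was at 20.2 and 21.4 CPM in DMSO, 12.2 and 8.80 with EPZ5676, and 11.7 and 8.51 with MI-2-2. Every library of these inhibitors was below both DMSO libraries, and the falls were log2 fold change -0.99, SE 0.23, adjusted p = 0.0116 and -1.04, SE 0.23, adjusted p = 0.00849, lost without EPZ5676 replicate 2 and MI-2-2 replicate 2 in turn (adjusted p = 0.0748 and 0.0659). Tfdp2, an E2F dimer partner, fell likewise (-1.01, adjusted p = 0.00185, and -1.04, adjusted p = 0.00155), while Rybp, shared with other Polycomb complexes, rose (1.12, adjusted p = 0.00283, and 0.96, adjusted p = 0.00476). Ring1 rose with iBET (0.48, adjusted p = 0.0482), a call lost in 9 of the 10 fits that left out a library, at most at an adjusted p of 0.255. Wdr5, the most abundant and the protein whose contact with MLL1 is blocked by MM-401, was between 145 and 202 CPM in all libraries and was not called against DMSO. Without DMSO replicate 2 the counts were 5 lower with EPZ5676 and 5 with MI-2-2. With MM-401 edgeR called 0 of the list (2 at an unadjusted p under 0.05, 1 by DESeq2), and without DMSO replicate 1 it called 2 lower with MM-401 and 1 lower with iBET.

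Of 10 coactivator genes that MYC recruits, 4 fell and 1 rose with EPZ5676 (of all tested genes 19.4% and 18.7%), 5 fell with MI-2-2 (21.2%) and 3 fell with iBET (7.54%), at list medians of -0.29, -0.33 and -0.02. Ruvbl1 and Ruvbl2, the paired ATPases of the TIP60 and INO80 complexes, fell in all 3. Ruvbl2 was at 309 and 323 CPM in DMSO, 134 and 101 with EPZ5676, 121 and 90.1 with MI-2-2, and 136 and 146 with iBET, so that no library of these inhibitors reached either DMSO value. Its fall was log2 fold change -1.43, adjusted p = 0.00145 with EPZ5676, -1.59, adjusted p = 0.000960 with MI-2-2 and -1.17, adjusted p = 0.00916 with iBET. Ruvbl1 fell 3.03-fold with EPZ5676 (adjusted p = 0.000779), 2.72-fold with MI-2-2 (adjusted p = 0.000924) and 1.72-fold with iBET (adjusted p = 0.0219). Kat2a, the acetyltransferase GCN5, fell with EPZ5676 (-1.35, adjusted p = 0.00247) and MI-2-2 (-1.13, adjusted p = 0.00438), and Dmap1 with iBET (-0.66, adjusted p = 0.0167). The iBET calls of Ruvbl2, Dmap1 and Ruvbl1 were lost without either iBET library, and that of Ruvbl1 also without either MM-401 library (adjusted p up to 0.0806, 0.127 and 0.142). The number lower with MI-2-2 was 3 without DMSO replicate 2, either MM-401 library or either MI-2-2 library, and the 1 gene higher with EPZ5676 was lost without EPZ5676 replicate 2 and with total-count scaling. Trrap, the most abundant of the list, was at 265 to 441 CPM and was not called against DMSO.

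Of 10 genes for enzymes that act on the MYC protein, 3 fell with EPZ5676 (of all tested genes 19.4%), 4 fell with MI-2-2 (21.2%), and 1 rose and 1 fell with iBET (6.38% and 7.54%). The list medians were -0.37, -0.40 and 0.00, and nothing is read from the counts with EPZ5676 and iBET, which are near these shares. Huwe1, a ubiquitin ligase and the most abundant, was at 638 and 845 CPM in DMSO, 459 and 413 with EPZ5676, and 432 and 463 with MI-2-2. All 4 inhibitor libraries were below both DMSO libraries, and the falls were log2 fold change -0.77, SE 0.17, adjusted p = 0.00962 and -0.73, SE 0.17, adjusted p = 0.0106, lost without EPZ5676 replicate 2 for the former and without either MI-2-2 library for the latter (adjusted p up to 0.0640 and 0.0630). Usp36, a nucleolar deubiquitinase, fell with both (-1.14, adjusted p = 0.00175, and -1.03, adjusted p = 0.00231). Skp2, a further ubiquitin ligase subunit, fell with MI-2-2 (-0.93, adjusted p = 0.0116), lost without either MI-2-2 library, at most at an adjusted p of 0.0665, and with iBET (-0.87, adjusted p = 0.0377), lost in 9 of the 10 fits that left out a library, at most at an adjusted p of 0.214. Stub1 fell with EPZ5676 (-0.44, adjusted p = 0.0152), lost without EPZ5676 replicate 1, at most at an adjusted p of 0.0774, and rose with iBET (0.43, adjusted p = 0.0363), lost in 6 of the 10 fits that left out a library, at most at an adjusted p of 0.184. The number lower was 5 without DMSO replicate 1 with EPZ5676 and 1 without either MI-2-2 library with MI-2-2, and 1 gene was higher with each of these without DMSO replicate 2.

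Among 34 genes that MYC is known to activate, 27 fell and 0 rose with EPZ5676, 30 fell and 0 rose with MI-2-2, and 2 fell and 0 rose with iBET. With MM-401 edgeR and DESeq2 each called 0 of them, and 0 had an unadjusted p under 0.05. The median log2 fold change was -1.24, -1.42, -0.41 and 0.00 in that order, against -0.06, -0.05, -0.04 and -0.01 over all tested genes, of which 19.4%, 21.2% and 7.54% fell with EPZ5676, MI-2-2 and iBET. Their summed level was 7878 and 13647 CPM in DMSO, 9801 and 9595 with MM-401, 4933 and 4964 with EPZ5676, 4115 and 3872 with MI-2-2, and 6656 and 7377 with iBET. DMSO replicate 2 had the highest sum of the 10 libraries, although its Myc level was below that of replicate 1, and the 4 EPZ5676 and MI-2-2 libraries had the lowest. Without DMSO replicate 2, 22 fell with EPZ5676 (median -0.81) and 26 with MI-2-2 (median -0.96), and with iBET 1 fell and 2 rose. The counts with iBET and MM-401 changed when single libraries were left out. Without DMSO replicate 1 more of the list fell with iBET and some fell with MM-401. That fit left a single DMSO library. The number of all genes called rose there too, and the list's counts were not set against that rise, so nothing is read from them. In each fit that left out an inhibitor library no list gene fell with iBET. With all libraries DESeq2 called 7 with iBET, and 8 had an unadjusted p under 0.05. The number lower with EPZ5676 was 17 without EPZ5676 replicate 1, and with MI-2-2 18 without MI-2-2 replicate 1.

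The same list was lower in contrasts that hold no DMSO library, though their p used a spread estimated from all libraries. EPZ5676 and MI-2-2 averaged gave 31 lower and 0 higher against MM-401, at a median of -1.35 (of all tested genes 21.6% and 20.5%, median 0.01). Against iBET they gave 28 lower and 1 higher, at a median of -0.99 (of all tested genes 23.8% and 21.9%, median -0.04). These numbers lower were 19 without MM-401 replicate 2 and 11 without iBET replicate 2. The 1 higher was Ccnd2, a cyclin named here after its value was seen. Ncl, which encodes nucleolin and was the most abundant, was at 1119 and 3224 CPM in DMSO, 715 and 850.3 with EPZ5676, and 553 and 669.8 with MI-2-2. Its inhibitor libraries were below both DMSO libraries, which were themselves far apart.

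Npm1, the nucleolar protein nucleophosmin, was at 379 and 593 CPM in DMSO, 158 and 215 with EPZ5676, and 119 and 132 with MI-2-2. Cad, which starts pyrimidine synthesis, was at 154 and 369.7 CPM in DMSO, 62.6 and 63.1 with EPZ5676, and 75.3 and 82.8 with MI-2-2. Every inhibitor library named was below both DMSO values for these genes. Npm1 fell with MI-2-2 (log2 fold change -1.95, adjusted p = 0.00113), Cad with EPZ5676 (-2.06, adjusted p = 0.00330), and the ribosome assembly factor Wdr12 with EPZ5676 (-2.30, adjusted p = 0.00675) and MI-2-2 (-2.52, adjusted p = 0.00446). Hspd1, a mitochondrial chaperone, fell with both (-1.86, adjusted p = 0.0116, and -2.03, adjusted p = 0.00774), lost without either EPZ5676 library for the former and without MI-2-2 replicate 1 for the latter (adjusted p up to 0.0723 and 0.0539). These DMSO libraries were far apart for Cad, as they were for Wdr12 (66.0 and 187 CPM) and Hspd1 (163 and 478 CPM), and the falls were smaller without DMSO replicate 2. There Cad was at -1.27 (adjusted p = 0.000457) with EPZ5676. Wdr12 was at -1.35 (adjusted p = 0.00790) with EPZ5676 and -1.55 (adjusted p = 0.00440) with MI-2-2, and Hspd1 at -0.86 (adjusted p = 0.00820) and -1.02 (adjusted p = 0.00413). With iBET the genes that fell were Shmt1 (-0.84, adjusted p = 0.0387) and Nop16 (-0.57, adjusted p = 0.0438), each kept only without DMSO replicate 1 among the fits that left out a library (adjusted p up to 0.215 and 0.243). The list matched 35 promoter windows of 28 genes. Of these windows 28.6% held the E-box, against 7.15% of all windows and 8.06% of those of genes with counts in these data. The genes were chosen as known MYC targets, so this share describes that choice and not a result of the inhibitors.

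**Figure D4:**
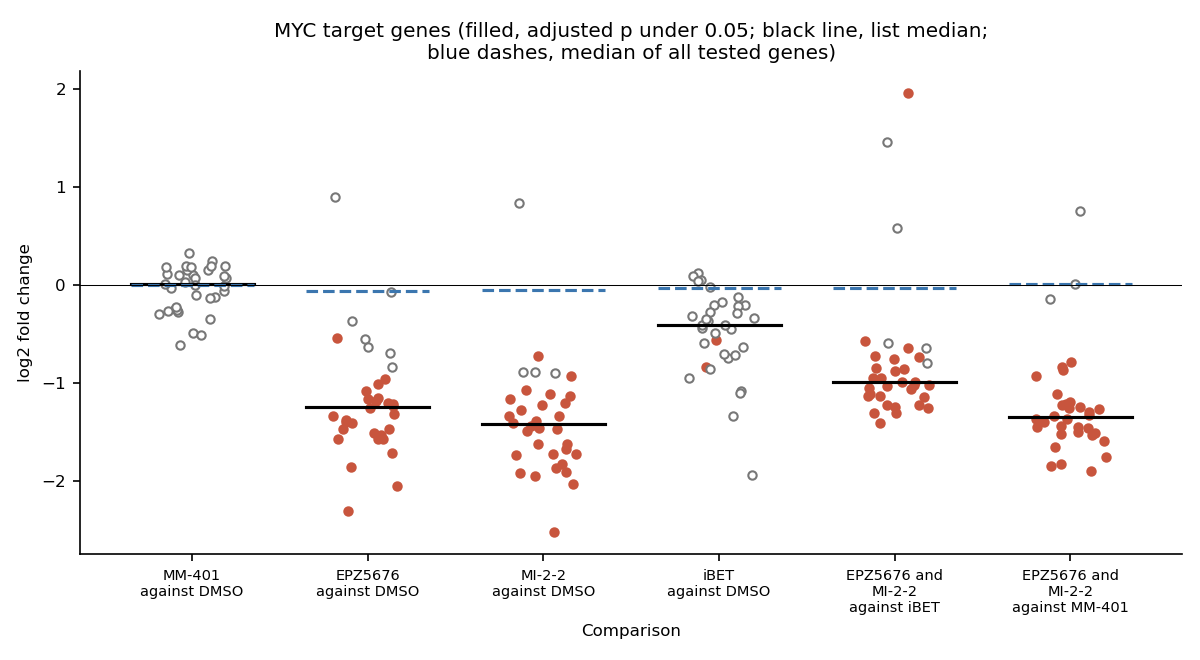
Log2 fold change of the 34 MYC target genes in 6 comparisons; filled points passed the adjusted threshold of 0.05, black lines are the list's median and blue dashes the median of all 12971 tested genes. The list's black line lay at -1.24 (EPZ5676) and -1.42 (MI-2-2) in the comparisons with DMSO.

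Of 8 genes that MYC is known to repress, 1 fell with EPZ5676 (of all tested genes 19.4%), 2 fell with MI-2-2 (21.2%) and 1 rose with iBET (6.38%), counts near these shares that say nothing of the list. Cdkn2c, the CDK4 and CDK6 inhibitor p18, was at 65.0 and 85.3 CPM in DMSO, 74.2 and 92.3 with MM-401, 12.8 and 19.9 with EPZ5676, 6.24 and 9.39 with MI-2-2, and 144 and 149 with iBET. It lay below DMSO with EPZ5676 and MI-2-2 and above it with iBET, with no overlap. It fell with EPZ5676 (log2 fold change -2.20, adjusted p = 0.00120) and MI-2-2 (-3.26, adjusted p = 0.000507) and rose with iBET (0.97, adjusted p = 0.0459), the last lost in 5 of the 10 fits that left out a library, at most at an adjusted p of 0.186. Cebpa, a myeloid transcription factor, fell with MI-2-2 (-0.70, adjusted p = 0.0305), a call lost without DMSO replicate 2, either MM-401 library or MI-2-2 replicate 2, at most at an adjusted p of 0.182. Itgb1, an integrin gene and the most abundant, was not called against DMSO. Without DMSO replicate 1, 3 genes of the list were higher under each of the same 3 inhibitors, and with MM-401, where edgeR called 0 (1 at an unadjusted p under 0.05, 0 by DESeq2), 1 was.

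Of 12 proliferation genes, 1 rose and 1 fell with EPZ5676 (of all tested genes 18.7% and 19.4%), 2 fell with MI-2-2 (21.2%) and 2 fell with iBET (7.54%), beside list medians of 0.03, -0.29 and -0.28. The counts with EPZ5676 and MI-2-2 were below these shares. With total-count scaling the numbers were 0 higher and 2 lower with EPZ5676 (median -0.14, where 28.0% of all tested genes were lower), and 6 lower with MI-2-2 (28.2%). Mki67, the most abundant, was at 1031 and 870.1 CPM in DMSO and 1540.2 and 1436 with EPZ5676. Both EPZ5676 libraries were above both DMSO libraries, and the rise (log2 fold change 0.65, adjusted p = 0.0142) was lost without EPZ5676 replicate 1, at most at an adjusted p of 0.0619. Mcm2, a replicative helicase subunit, fell with EPZ5676 (-0.80, adjusted p = 0.0188), lost without DMSO replicate 2 or either EPZ5676 library, at most at an adjusted p of 0.105, and with MI-2-2 (-1.03, adjusted p = 0.00654), and Mcm5 fell with MI-2-2 (-0.87, adjusted p = 0.0229), lost without DMSO replicate 2 or either MI-2-2 library, at most at an adjusted p of 0.113. With iBET the mitotic genes Cdc20 (-0.72, adjusted p = 0.0220) and Plk1 (-0.57, adjusted p = 0.0204) fell, and both calls were lost without either MM-401 or either iBET library (adjusted p up to 0.156). Without DMSO replicate 1 the numbers were 2 higher and 3 lower with EPZ5676, 4 lower with MI-2-2 and 4 lower with iBET.

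The summed levels of myeloid maturation markers, of neutrophils and of macrophages, were highest in the 4 libraries highest in Mxd1. Of 8 maturing neutrophil markers 7 were matched and tested, and all 7 rose with EPZ5676 (of all tested genes 18.7%) and all 7 with MI-2-2 (20.2%), also without DMSO replicate 2, while 2 fell with iBET (of all tested genes 7.54%, and 5 without DMSO replicate 2, and 1 in each of the 8 fits that left out an inhibitor library). With MM-401 edgeR called 0 (4 at an unadjusted p under 0.05, 3 higher by DESeq2), and 5 were higher without DMSO replicate 1. Their summed level was 866 and 259 CPM in DMSO, 1240.2 and 1473 with MM-401, 20629 and 26139 with EPZ5676, 19884 and 20080.5 with MI-2-2, and 242 and 114 with iBET. Within DMSO and iBET the sum and Mxd1 were both higher in replicate 1, while with MM-401 the sum was higher in replicate 2 and Mxd1 in replicate 1. Both MM-401 sums were above both DMSO sums, with Mxd1 between the DMSO values. Ngp, the most abundant, was at 553 and 133 CPM in DMSO, 10724 and 12547 with EPZ5676, and 75.7 and 36.5 with iBET. The EPZ5676 libraries were above and the iBET libraries below both DMSO libraries, and the fall with iBET (log2 fold change -2.61, adjusted p = 0.0324) was lost in 8 of the 10 fits that left out a library, at most at an adjusted p of 0.190. It was -3.30 (adjusted p = 0.00244) without DMSO replicate 2. Camp, a cathelicidin, was at 52.7 and 39.3 CPM in DMSO and 2.96 and 3.10 with iBET and fell with iBET (-3.92, adjusted p = 0.000818) in every fit that left out a library. Ltf, lactoferrin of specific granules, was at 25.2 and 8.92 CPM in DMSO and 3194 and 4829 with EPZ5676 and rose (7.87, adjusted p = 0.000373). 

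Of 8 macrophage markers 7 rose with EPZ5676 (of all tested genes 18.7%) and 7 with MI-2-2 (20.2%), and with iBET edgeR called 0 (2 at an unadjusted p under 0.05, and 2 higher by DESeq2, 3 without DMSO replicate 1). With MM-401 it also called 0 (4 unadjusted, 3 by DESeq2, 4 without DMSO replicate 1). Their summed level was 80.3 and 63.7 CPM in DMSO, 114 and 102 with MM-401, 332 and 432 with EPZ5676, 337 and 695 with MI-2-2, and 72.1 and 108 with iBET, with Cd68 the most abundant. The EPZ5676 and MI-2-2 sums were the highest, and with iBET the sum was higher in replicate 2 where Mxd1 was lower. Mrc1, the mannose receptor, was at 1.67 and 1.05 CPM in DMSO and 71.9 and 247 with MI-2-2 and rose (log2 fold change 6.85, adjusted p = 0.000676). The part of these maturation markers in the changes of Mxd1, Mxi1, Myc and the MYC targets was not tested.

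**Figure D5:**
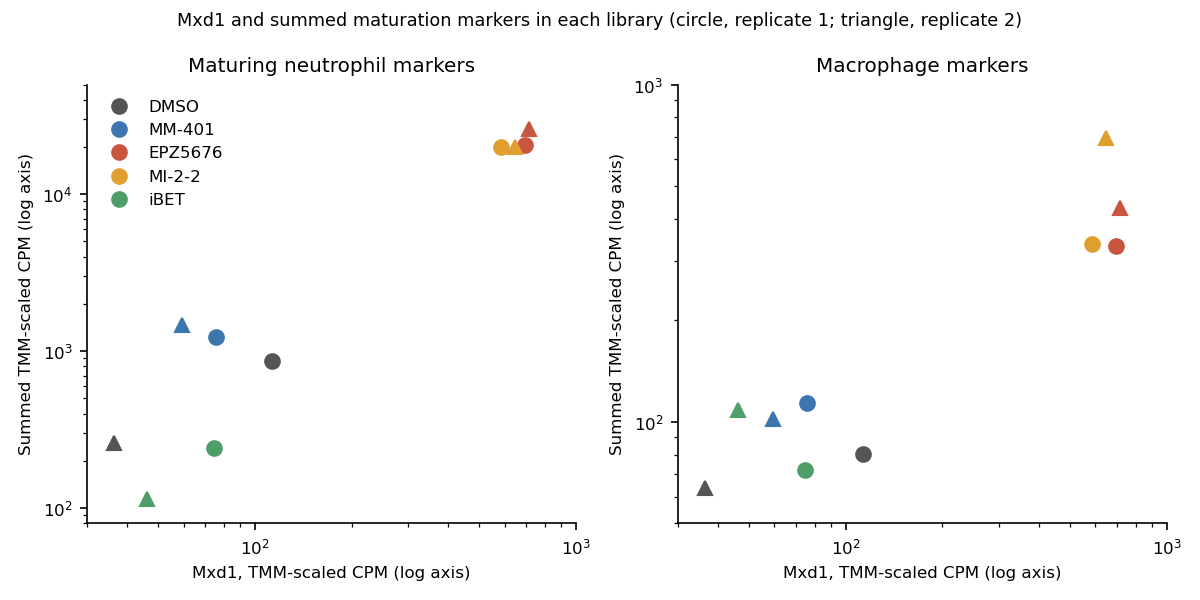
Level of Mxd1 (horizontal, TMM-scaled CPM, log axis) against the summed level of maturing neutrophil markers (left) and macrophage markers (right) in each library (vertical, TMM-scaled CPM, log axis); circles are replicate 1 and triangles replicate 2. The 4 EPZ5676 and MI-2-2 libraries lie apart at the upper right of both panels.

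Markers of myeloid progenitors were detected in every condition, though not each of them clearly. Cd34, named here after its value was seen, was at 0.0970 and 0.565 CPM with EPZ5676, and 0.390 and 0.219 with MI-2-2. The list had 13 progenitor and leukemia markers, some of them, such as the integrin gene Itgam, not limited to progenitors. With EPZ5676 4 rose and 6 fell (of all tested genes 18.7% and 19.4%). With MI-2-2 4 rose and 7 fell (20.2% and 21.2%), and with iBET 2 fell (7.54%). No change of progenitors is read from the counts of these markers. Their sum was 11128 and 14617 CPM in DMSO, 12090.2 and 12609.5 with MM-401, 6587 and 7814 with EPZ5676, 6664 and 6783 with MI-2-2, and 8094 and 7203 with iBET. Elane, neutrophil elastase and the most abundant, was at 4195 and 4009 CPM in DMSO, 3674 and 3198 with MM-401, 1427 and 1222 with EPZ5676, 1039 and 644 with MI-2-2, and 747 and 376 with iBET. All libraries of EPZ5676, MI-2-2 and iBET were below both DMSO libraries, and Elane fell with each, log2 fold change -1.63, adjusted p = 0.00850, -2.29, adjusted p = 0.00232 and -2.87, adjusted p = 0.00477 in that order, the first lost without EPZ5676 replicate 2, at most at an adjusted p of 0.0635. Mpo, myeloperoxidase, was at 386 and 4817 CPM in DMSO, 1287 and 2049.7 with MM-401, 167 and 367 with EPZ5676, 19.6 and 52.0 with MI-2-2, and 14.6 and 16.1 with iBET. The DMSO libraries were far apart, and the EPZ5676, MI-2-2 and iBET libraries were below both. Mpo fell with MI-2-2 (-6.18, adjusted p = 0.00563), with iBET (-7.40, adjusted p = 0.0114), lost without either iBET library, at most at an adjusted p of 0.103, and with EPZ5676 (-3.28, adjusted p = 0.0397), lost in 9 of the 10 fits that left out a library, at most at an adjusted p of 0.520. Without DMSO replicate 2 these were -3.40 (adjusted p = 0.00447), -4.65 (adjusted p = 0.00423) and -0.51 (adjusted p = 0.520) in that order. Meis1, an MLL-AF9 target, was at 36.4 and 89.9 CPM in DMSO and 0.679 and 1.79 with EPZ5676 and fell (-5.67, adjusted p = 0.000705), at -4.85 (adjusted p = 0.000440) without DMSO replicate 2. The integrin gene Itgam rose with EPZ5676 (2.53, adjusted p = 0.00111) and MI-2-2 (2.68, adjusted p = 0.000876).

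Markers of other cell types were at low levels. Mast cell and basophil markers, led by Mcpt8, summed to between 7.52 and 22.2 CPM with Fcer1a and Prss34 at 0, and 2 of 3 tested fell with EPZ5676 (of all tested genes 19.4%) and 2 with MI-2-2 (21.2%), Mcpt8 and Gata2 in each. Red cell markers, led by Klf1, summed to between 0.730 and 2.16 CPM with Hba-a1, Hbb-b1 and Hbb-bt at 0. Megakaryocyte markers, led by Pf4, summed to between 0.612 and 10.0 CPM, and of 5 tested 3 rose with EPZ5676 (18.7% of all genes) and 3 with MI-2-2 (20.2%), while 1 fell with iBET (7.54%). Lymphoid markers, led by Cd79b, summed to between 0.133 and 8.33 CPM with Pax5, Cd3e, Cd8a and Ncr1 at 0, and Cd79b rose with EPZ5676 (1.22, adjusted p = 0.0205) and fell with iBET (-4.56, adjusted p = 0.00195). Stromal markers, led by Col1a1, summed to between 0 and 19.0 CPM with Col1a2, Col3a1, Dcn and Lum at 0. Col1a1 was above DMSO in all 4 EPZ5676 and MI-2-2 libraries, at 2.99 to 18.9 CPM, and rose with both.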

How the data were processed

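The authors deposited read counts per gene symbol for 10 libraries, and their notes name TopHat2, Subread and DESeq and the build mm9, with no versions or roles. The annotation is not given in the sources used here. Counts were tested in R 4.3.3 with edgeR 4.0.16 and limma 3.58.1 (quasi-likelihood fit of all 10 libraries, TMM, filterByExpr, 12971 genes tested, false discovery rate 0.05 within each of 8 comparisons). Log2 levels used a prior count of 2. Exon lengths came from GENCODE M21 on GRCm38, not the authors' mm9. The code was tested on simulated data. Alternatives were total-count scaling, DESeq2 1.42.0 and its size factors, other filters, a block on replicate number, only the groups compared, and each library left out. Those for the lists were added after the DMSO libraries had been compared. Counts of members and list genes in fits that left out a library were not set beside the share of all genes called there. The length of the longest transcript was tried for the ratio of Myc to its antagonists, and for the order of members after their levels were seen. The members and gene lists were chosen with earlier results of these data known. Lists covered partners, corepressors, coactivators, turnover enzymes, targets, proliferation and cell type markers (Ly6g was not in the table). Genes named are the members, each list's most abundant gene, up to 3 called genes of each list with the largest log2 fold change against DMSO for EPZ5676, MI-2-2 and iBET, and the genes most correlated with Myc (5) and with the other member of widest range (3) among those averaging 5 CPM or more. Any other is marked in the text. Results for 2 of the listed genes are not reported here.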

Additional observations from a re-analysis of the deposited data

How the results depend on the processing

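Fold changes and calls of the members and lists were refitted with other scalings, filters and tests and with each library left out. In the latter fits the remaining library of a group was assumed to vary like the other groups. Of the log2 fold changes of Myc in all comparisons and of the other members where called, under these alternatives, 59 kept their direction but no longer passed the threshold, 1 came to pass it and 1 reversed. This tally leaves out members not called, some of which came to be called or changed sign. The reversed value in it was that of Myc between EPZ5676 and MI-2-2, which was not called, and it ran from -0.13 without EPZ5676 replicate 1 to 0.68 without EPZ5676 replicate 2.

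The numbers of genes called differed between tests and between sets of libraries. DESeq2 called 286 genes with MM-401 and 2830 with iBET against DMSO, 156 between EPZ5676 and MI-2-2, and 2342 between MM-401 and iBET. Fits of only the groups compared gave 1174 genes and 2 members with EPZ5676, 1147 and 1 with MI-2-2, 0 and 0 with iBET, and 4223 genes between MM-401 and iBET. Between EPZ5676 and MI-2-2, total-count scaling gave 0 genes and no filter 7. With no filter 1 member was called with iBET. Between MM-401 and iBET 2 members were called with DESeq2's size factors, DESeq2's test, the stricter filter and only the groups compared. The ratio of Myc to its antagonists with iBET was 1.69 with the length of the longest transcript. The cause of these differences was not tested.

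With single libraries left out, genes called ranged from 0 (without DMSO replicate 2) to 1368 (without DMSO replicate 1) with MM-401, 2639 (without EPZ5676 replicate 2) to 6808 (without DMSO replicate 1) with EPZ5676, 2772 (without MI-2-2 replicate 2) to 7197 (without DMSO replicate 1) with MI-2-2 and 150 (without iBET replicate 2) to 3720 (without DMSO replicate 1) with iBET against DMSO. They ranged from 0 (without MM-401 replicate 1) to 111 (without DMSO replicate 2) between EPZ5676 and MI-2-2 and from 183 (without MM-401 replicate 2) to 3207 (without DMSO replicate 2) between MM-401 and iBET. For EPZ5676 and MI-2-2 averaged they ranged from 2760 (without iBET replicate 2) to 7534 (without DMSO replicate 1) against iBET and from 2302 (without MM-401 replicate 2) to 7178 (without DMSO replicate 1) against MM-401. Members called ranged from 3 (without EPZ5676 replicate 2) to 7 (without DMSO replicate 2) with EPZ5676, 0 (without iBET replicate 1) to 3 (without DMSO replicate 2) with iBET, 0 (without MM-401 replicate 1) to 2 (without DMSO replicate 1) between MM-401 and iBET, 2 (without iBET replicate 2) to 9 (without DMSO replicate 2) for both averaged against iBET and 3 (without MM-401 replicate 1) to 6 (without DMSO replicate 1) against MM-401.

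The labels number the libraries 1 and 2 in every group without saying what a number shares. Deviations from the group means of same-numbered libraries correlated at r 0.278 to 0.666 over 10 pairs of groups. With a replicate block 3088 genes were called with iBET against DMSO, 4 between EPZ5676 and MI-2-2 and 2470 between MM-401 and iBET. Members called were 6 with EPZ5676, 6 with MI-2-2, 3 with iBET, 2 between MM-401 and iBET, 8 for both averaged against iBET and 6 against MM-401. They included Mxd4 in all but the comparisons of iBET with DMSO and MM-401, Mnt for both averaged against iBET and Mlx between MM-401 and iBET. Under the block Myc passed the threshold with iBET (-0.60, adjusted p = 0.0327).

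With 2 libraries a group, small changes can be missed, and a missing call is not a sign of no change. Counts are relative, so a change in total RNA per cell is not seen. Doses, strand setting and annotation were not given, and reads shared with overlapping genes cannot be separated. DMSO replicate 2 differed from the rest in sex-linked genes, and its origin is not given in the sources used here. Protein levels and binding were not measured.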
